A study of Mus musculus with 2 samples.

Results

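The 9 genes described here encode proteins of the complement system, and they were followed across the cell types of the mouse dorsal root ganglion (DRG). They are *C1qa*, *C1qb* and *C1qc* (the chains of C1q), *C1ra* and *C1s1* (the proteases that join C1q in the C1 complex), *C4b* and *C3* (the components cleaved after it), and *C3ar1* and *C5ar1* (the receptors of the cleaved fragments C3a and C5a). They are 9 of 32285 genes counted, chosen by symbol, and their unique molecular identifiers (UMIs, 1 per captured transcript) were summed per sample and cell type. The samples were 2 replicates of 1 group: L4 and L5 DRGs of naive, uninjured female C57BL/6 mice, 3 months of age, whose cells were dissociated with papain and collagenase, sorted as live single cells and captured with the 10x Chromium 3′ chemistry. No sample was treated and no genotype was altered, so cell types within the ganglion were compared. The study calls the samples biological replicates but does not give the number of mice in each, so p-values measure the spread between these 2 samples only.

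Complement is a cascade of proteins that tags targets for removal and calls in immune cells. In the classical pathway C1q binds a target, C1r and C1s become active and cleave C4 and C2, and the enzyme so formed cleaves C3. The fragments C3a and C5a act on receptors of myeloid cells, while bound fragments of C3 mark a target for uptake. Much complement in blood comes from the liver, but tissues make their own, and C1q is a known product of tissue macrophages.

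In all, 16090 cells were retained, and 8 named types entered the comparisons: 7888 satellite glial cells (SGCs), 3200 myelinating Schwann cells, 1311 non-myelinating Schwann cells, 1104 fibroblasts, 666 mural cells, 420 endothelial cells, 304 macrophages and 101 neurons. Macrophages were named from *Aif1*, *Csf1r* and *Cx3cr1*, which summed to 2264 and 2093 CPM (a gene's UMI counts on the usual CPM scale, relative to all UMIs of a summed profile) in macrophages and to between 3.13 and 8.47 CPM in the other types. No complement gene was among the genes used for clustering or naming, but the macrophage cluster was divided further after C1q levels per cluster had been seen. The 16 profiles, 1 per type and replicate, held 1486102 to 61002921 UMIs. The replicates shared 134 barcodes called as cells, and 55 and 46 of the retained cells carried 1, among them 33 and 25 of the neurons. Without those cells the neurons of replicate 1 fell under the 20 cells a profile needed, and neurons left the fit. Of the 63 comparisons of a gene's highest type with another type, 62 were called with them, and 53 of the 54 that remained were called without them.

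The genes fell into 3 patterns of cell type. The C1q chains and both receptors were highest in macrophages, *C1ra* and *C1s1* in fibroblasts and mural cells, and *C4b* in non-myelinating Schwann cells. Among the named types *C3* was highest in macrophages and fibroblasts, and 29.9% of its UMIs lay in unnamed clusters. All 9 were higher in their highest type than in the remaining 7 types averaged (edgeR's quasi-likelihood test with Benjamini-Hochberg adjustment over 17919 genes), with log2 differences between 4.69 for *C1ra* and 12.38 for *C3ar1*. Here and below, the average of types is that of their log2 levels, so types with few or no counts lower it and a very high type raises it. A log2 difference from it can exceed the log2 ratio to the mean CPM of those types. The highest type was picked from the same levels, so the direction was fixed by that choice. *C3ar1* and *C5ar1* also had enough counts for a test only through their macrophage profiles. Against each other type in turn, 62 of 63 comparisons were called, where 23.5% of all gene comparisons over the same pairs of types were called higher. The first type of a pair was chosen as the member's highest, which it need not be for other genes. These shares are therefore not like for like. Of neighbours in the order of levels, 19 of 63 pairs were called, against 51.4% of all genes over the same pairs. Neighbours were chosen as the closest levels of each member, so a lower share follows from that choice.

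**Figure D1:**
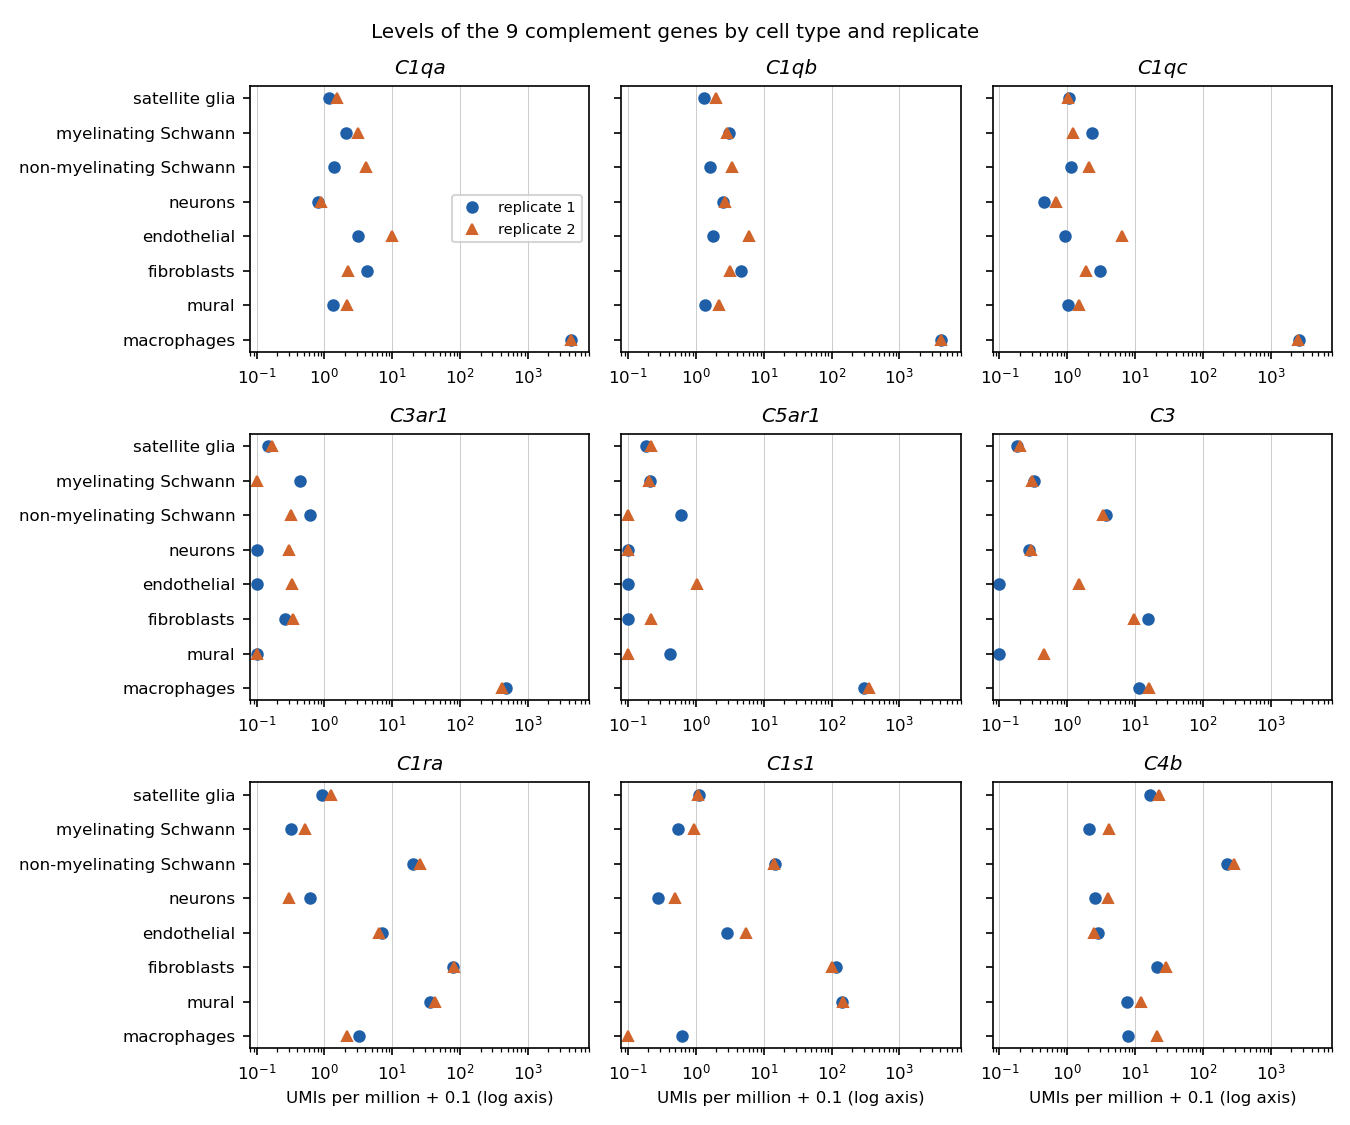
Level of each of the 9 genes (CPM plus 0.1, log axis) in 8 cell types, with a circle for replicate 1 and a triangle for replicate 2. The chains of C1q and the receptors stand alone in macrophages, *C1ra* and *C1s1* peak in fibroblasts and mural cells, and *C4b* peaks in non-myelinating Schwann cells at 226 and 291 CPM.

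Counted over all types, the 9 genes gave 72 tests of 1 type against the average of the others, of which 17 were called higher and 32 lower. Among all genes 27.4% of such tests were called higher and 22.5% lower. The share called higher was thus near the background and the share called lower above it. A type far above the rest raises the average for each other type, so lower calls there can follow from the measure. In fibroblasts *C1qa* was called lower (edgeR, log2 difference -1.11, adjusted p = 0.0168), though only macrophages and endothelial cells had a higher mean level. The higher calls lay in 5 types. Macrophages held 6 of them (24.2% of all genes tested were called higher there), fibroblasts 4 (26.8%), mural cells 2 (22.5%), non-myelinating Schwann cells 4 (20.9%) and SGCs 1 (34.4%). In the remaining 3 types the share of all genes called higher was 27.9% in myelinating Schwann cells, 37% in neurons and 26% in endothelial cells. With the estimated RNA of empty droplets subtracted from each profile, 7 of the 72 tests were called lower and 23 higher. The shares of all genes called in that fit were not computed, so these counts have no background beside them.

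*C1qa*, *C1qb* and *C1qc* lie together on chromosome 4 on the minus strand (GRCm38: chr4:136895917-136898803, chr4:136880129-136886187 and chr4:136889804-136893065). In macrophages *C1qa* reached 4293 CPM (replicate 1) and 4299.8 CPM (replicate 2). No other type came near: the remaining 14 profiles lay between 0.695 and 9.88 CPM, and no replicate overlapped with macrophages. *C1qb* had 4122 and 4078 CPM in macrophages and 1.202 to 5.88 CPM elsewhere. *C1qc* had 2641 and 2515 CPM in macrophages and 0.347 to 6.35 CPM elsewhere. The log2 difference between macrophages and the average of the remaining types was 11.296 (SE 0.120, adjusted p = 2.25e-21) for *C1qa*, 10.99 (SE 0.103, adjusted p = 8.78e-22) for *C1qb* and 11.16 (SE 0.118, adjusted p = 2.25e-21) for *C1qc*. On the scale of CPM, *C1qa* in macrophages was 5831-fold the level of neurons and, with both replicates pooled, 637-fold that of endothelial cells. The latter had 3.05 and 9.88 CPM, and 1 of their cells held 67 of their 114 C1q UMIs. Of 15551 UMIs of *C1qa* in retained cells, 94.2% lay in the 304 macrophages, which were 1.89% of the cells. The shares of *C1qb* and *C1qc* were 93.5% and 93.4%. These shares leave out a cluster with macrophage markers that was removed as doublets. It held 1273 (replicate 1) and 1335 (replicate 2) further UMIs of *C1qa*.

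The bases before the starts of *C1qb* and *C1qc* are shown because these chains were detected together in the same cells, and those of *C3ar1* and *C5ar1* because these genes shared their highest type. They come from RefSeq promoter entries (GRCm38.p6) and hold the part of each entry that lies upstream of both the RefSeq and the GENCODE start. All 4 are read on the minus strand, 5′ to 3′: chr4:136886201-136886450 for *C1qb*, chr4:136893066-136893164 for *C1qc*, chr6:122856162-122856407 for *C3ar1* and chr7:16259541-16259588 for *C5ar1*. Capitals mark the core motif of the myeloid factor PU.1, searched as GAGGAA on both strands, where it reads TTCCTC on the reverse.
C1qb: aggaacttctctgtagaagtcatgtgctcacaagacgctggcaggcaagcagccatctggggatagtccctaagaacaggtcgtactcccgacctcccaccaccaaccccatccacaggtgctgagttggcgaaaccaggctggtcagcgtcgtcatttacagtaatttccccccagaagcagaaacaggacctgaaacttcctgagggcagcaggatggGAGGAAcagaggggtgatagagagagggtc
C1qc: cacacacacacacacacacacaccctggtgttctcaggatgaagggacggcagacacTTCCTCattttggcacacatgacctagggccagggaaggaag
C3ar1: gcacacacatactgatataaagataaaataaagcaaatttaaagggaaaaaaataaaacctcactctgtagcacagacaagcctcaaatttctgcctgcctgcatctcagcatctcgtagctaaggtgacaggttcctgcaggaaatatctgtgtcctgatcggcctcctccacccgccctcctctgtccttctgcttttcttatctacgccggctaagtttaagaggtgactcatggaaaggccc
C5ar1: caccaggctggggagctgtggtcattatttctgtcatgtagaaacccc
The motif stood in the 250 bases before the start of 2 of the 7 members with an entry, *C1qb* and *C1qc*, and in 23.1% of 27025 genes over the same length. *C1qa* and *C4b* had no entry. A match describes letters only, not a site in use.

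Every macrophage held UMIs of all 3 chains, in a set of cells divided from its cluster with C1q levels seen. With that cluster undivided the log2 difference of *C1qa* was 10.37. Each cell had a median of 119 C1q UMIs in both replicates, with 26 to 304 in replicate 1 and 20 to 298 in replicate 2. C1q made up 1.11% and 1.09% of all macrophage UMIs. Quartiles were 9009 and 13587 CPM of C1q per cell (replicate 1) and 8996 and 13365 CPM (replicate 2). After each cell was thinned to 1000 UMIs, 83.7% and 84.1% of macrophages still showed all 3 chains, beside the 82.3% and 82.8% given by the product of the separate shares. Within cells the C1q chains correlated with each other (Spearman's rho 0.54 to 0.72 over 172 and 132 cells, a description of cells that share a library and a total).

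Outside macrophages C1q was sparse. At 1000 UMIs per cell *C1qa* was seen in 95.3% (exact 95% interval 91.0 to 98.0) and 96.2% (91.4 to 98.8) of macrophages, and in 0.0989% and 0.156% of SGCs, whose median depths were 13951 and 14915 UMIs against 10722 and 10568 in macrophages. Empty droplets held 82.7 and 80.2 CPM of *C1qa*, more than any type but macrophages, and were estimated to supply 1.46% to 5.70% of the UMIs of a profile. Among the 455 C1q UMIs of SGCs the chains stood at 33.6%, 40.9% and 25.5%, beside 35.5%, 39.9% and 24.6% in empty droplets and 39.1%, 37.3% and 23.5% in macrophages. In neurons 27 of 40 C1q UMIs were *C1qb* (67.5%, exact 95% interval 50.9 to 81.4), and in endothelial cells 31 of 114 (27.2%, 19.3 to 36.3). Of these 114 UMIs, 67 lay in 1 cell. The interval takes UMIs as independent, so it is too narrow for endothelial cells. In the order of levels for *C1qa*, endothelial cells stood above fibroblasts (log2 difference 1.14, SE 0.446, adjusted p = 0.0430) although their replicates overlapped. The part of that 1 endothelial cell in this call was not tested. No other neighbours below macrophages were called for any chain.

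*C3ar1* (chr6:122847138-122856161, minus strand) encodes the receptor of C3a, and *C5ar1* (chr7:16246743-16259540, minus strand) that of C5a. Both are G protein-coupled receptors of myeloid cells. *C3ar1* had 469.9 and 419.9 CPM in macrophages and at most 0.509 CPM in any other profile. *C5ar1* had 297 and 353 CPM in macrophages and at most 0.941 CPM elsewhere. The replicates of macrophages were far from all other profiles for both genes. Log2 differences were 12.38 (SE 0.143, adjusted p = 4.89e-20) for *C3ar1* and 11.80 (SE 0.179, adjusted p = 1.76e-18) for *C5ar1*, each called in macrophages against all 7 other types. Mural cells held no UMI of *C3ar1*, so that macrophages were at least 907-fold higher against the floor of 3 counts in both replicates together. For *C5ar1* neurons held none, and macrophages were at least 1163-fold higher on the same floor. No neighbours below macrophages differed beyond their spread for either receptor, whose counts there were between 0 and 12 UMIs per type. In neurons *C5ar1* was called lower than the average of the remaining types (adjusted p = 0.0273), a test against a count of 0. At 1000 UMIs per cell *C3ar1* was seen in 31.4% and 37.9% of macrophages and *C5ar1* in 21.5% and 32.6%. At that depth 6.98% and 14.4% of macrophages showed both, beside 6.75% and 12.3% given by the product of the separate shares. With all UMIs 70.9% and 67.4% of macrophages held both receptors, and 2.33% and 3.03% held neither.

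**Figure D2:**
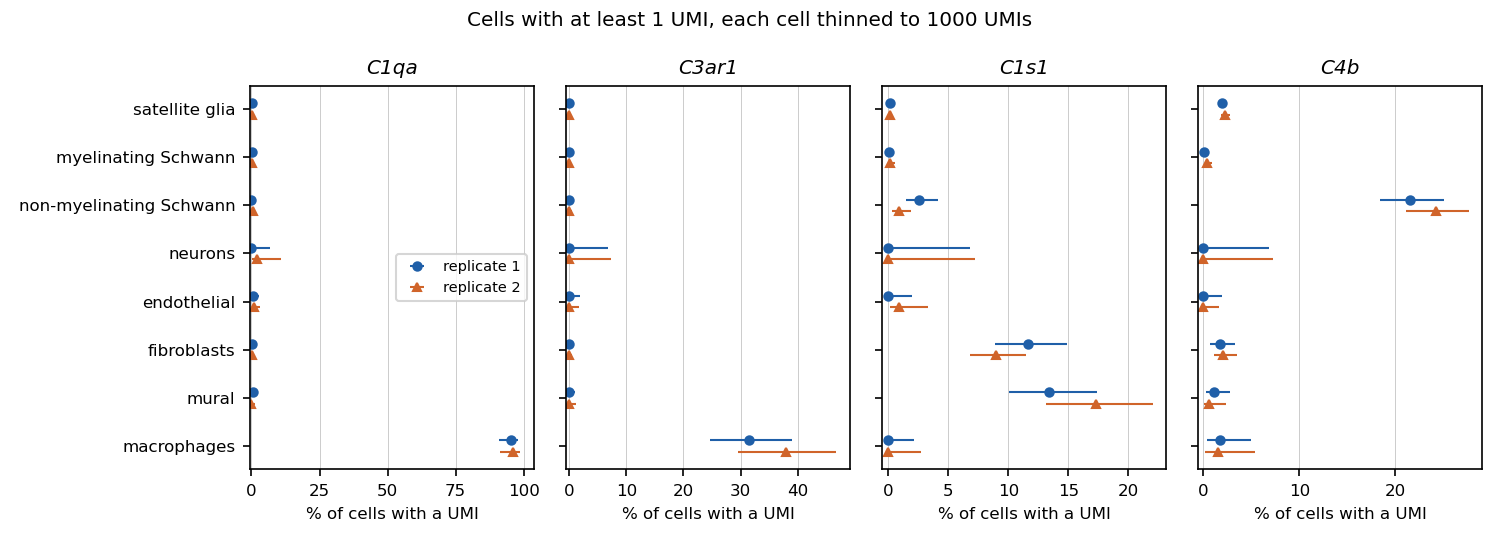
Percent of cells with at least 1 UMI after each cell was thinned to 1000 UMIs, for *C1qa*, *C3ar1*, *C1s1* and *C4b* by type, with a circle for replicate 1, a triangle for replicate 2 and lines for the exact 95% binomial interval (counting error only). *C1qa* was seen in 95.3% and 96.2% of macrophages, *C1s1* chiefly in mural cells and fibroblasts, and *C4b* in 21.6% and 24.2% of non-myelinating Schwann cells.

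*C1ra* (chr6:124512405-124523443, plus strand) and *C1s1* (chr6:124530345-124542359, minus strand) encode the serine proteases of the C1 complex, and neither was a macrophage gene here. *C1ra* had 79.0 and 81.5 CPM in fibroblasts, 36.4 and 42.3 CPM in mural cells and 20.4 and 25.6 CPM in non-myelinating Schwann cells. These 3 types did not overlap. Endothelial cells followed with 6.93 and 6.35 CPM, macrophages had 3.12 and 2.02 CPM, and all other profiles were at 1.13 CPM or less. Fibroblasts exceeded the average log2 level of the remaining types by 4.69 (SE 0.111, adjusted p = 2.45e-16). Fibroblasts stood above mural cells (log2 difference 1.02, SE 0.135, adjusted p = 7.22e-06), mural cells above non-myelinating Schwann cells (0.85, SE 0.161, adjusted p = 0.000298) and these above endothelial cells (1.76, SE 0.214, adjusted p = 1.75e-06). Endothelial cells and macrophages did not differ beyond their spread (adjusted p = 0.108). Below them macrophages were called above SGCs (adjusted p = 0.0157) and SGCs above neurons (adjusted p = 0.0214), on 9, 118 and 4 UMIs.

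*C1s1* took another order at the top. It had 143 and 146 CPM in mural cells and 117 and 102 CPM in fibroblasts, without overlap. Non-myelinating Schwann cells had 14.8 and 14.1 CPM, endothelial cells 2.77 and 5.41 CPM, and no other profile passed 1.00 CPM. Mural cells exceeded the average log2 level of the remaining types by 5.89 (SE 0.120, adjusted p = 2.97e-17) and fibroblasts by 5.42 (SE 0.112, adjusted p = 3.80e-17). The step from mural cells to fibroblasts was small but called (log2 difference 0.42, SE 0.107, adjusted p = 0.00447), and that from fibroblasts to non-myelinating Schwann cells was 3.00 (SE 0.142, adjusted p = 8.94e-12). Endothelial cells stood 1.74 below non-myelinating Schwann cells (SE 0.262, adjusted p = 2.24e-05) and 1.85 above SGCs (SE 0.315, adjusted p = 6.01e-05). SGCs, myelinating Schwann cells, macrophages and neurons were not separated in that order. Macrophages, the source of C1q, held 1 UMI of *C1s1* among 304 cells.

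Fibroblasts had 0.674 and 0.798 UMIs of *C1ra* per UMI of *C1s1*, mural cells 0.254 and 0.290, and non-myelinating Schwann cells 1.38 and 1.81. These ratios are not ratios of molecules per length, and their difference between types was not tested. Both proteases were found in the same fibroblast in 41.6% and 37.5% of cells and in the same mural cell in 17.3% and 20.6%, with all UMIs. After thinning to 1000 UMIs, 0.862% and 0.8% of fibroblasts showed both, beside 1.05% and 0.903% given by the product of the separate shares. In mural cells 0.274% and 0% did, beside products of 0.405% and 0.402%. At 1000 UMIs per cell *C1s1* was seen in 13.4% and 17.3% of mural cells and in 11.6% and 8.96% of fibroblasts, against 0 of 304 macrophages, which by the floor of 3 counts allows a share of up to 0.987% with a UMI at that depth. Fibroblast markers were present in the profiles of other types that held *C1ra*: the 8 listed markers summed to 854 and 907 CPM in non-myelinating Schwann cells and to 856 and 890.2 CPM in mural cells, against 30936 and 30502 CPM in fibroblasts. In replicates 1 and 2, 6 and 8 of the 8 markers were detected in non-myelinating Schwann cells and 7 and 8 in mural cells, and their part in *C1ra* was not tested. The 8 markers summed to 586 and 672 CPM in myelinating Schwann cells, where *C1ra* was at 0.223 and 0.412 CPM.

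*C4b* (chr17:34728380-34743882, minus strand) encodes complement C4, the substrate of C1s. Non-myelinating Schwann cells, the glia that bundle thin unmyelinated axons, had 226 and 291 CPM. Fibroblasts had 20.8 and 28.0 CPM, SGCs 16.5 and 22.5, macrophages 7.80 and 20.9, and mural cells 7.53 and 12.1. The lower replicate of non-myelinating Schwann cells lay far above every profile of another type. The log2 difference from the average of the remaining types was 4.91 (SE 0.143, adjusted p = 1.17e-14), and that from fibroblasts, the next type, was 3.31 (SE 0.202, adjusted p = 2.44e-10). From fibroblasts down to mural cells no neighbours were called, and mural cells stood above myelinating Schwann cells (log2 difference 1.60, SE 0.474, adjusted p = 0.00969). The main mural cluster had 3.09 and 2.31 CPM of *C4b*, and a small one of 25 and 23 cells with 4 of 8 fibroblast markers had 55.1 and 101 CPM. Myelinating Schwann cells, the other Schwann lineage of the nerve, had 2.01 and 4.02 CPM, so that non-myelinating Schwann cells were 85.2-fold higher on the scale of CPM (counting interval 65.5 to 113).

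Non-myelinating Schwann cells and SGCs together held most of the *C4b* UMIs. Of 5209 UMIs in retained cells, 42.3% lay in non-myelinating Schwann cells, where 55.9% and 61.6% of cells held a UMI, and 45.6% lay in SGCs, where 16.4% and 21.2% did. At equal depth the shares were 21.6% and 24.2% in non-myelinating Schwann cells, 1.93% and 2.29% in SGCs and 0.126% and 0.436% in myelinating Schwann cells. SGCs were called above the average log2 level of the remaining types (log2 difference 0.95, SE 0.169, adjusted p = 0.000110), as were fibroblasts (1.13, SE 0.209, adjusted p = 0.000217). Types with little *C4b* lower that average, and both lay far below non-myelinating Schwann cells in CPM. Among the 5 SGC clusters *C4b* ranged from 11.13 to 31.80 CPM with both replicates pooled, and empty droplets held 27.2 and 28.7 CPM. Such droplets were estimated to supply 1.46% and 2.29% of all UMIs of the SGC profiles. *C4b* shares 17.0% of the 90-base windows in the last 1000 bases of its transcripts with *C4a*, so reads of these genes may have been split or dropped. *C4a* was at 1.02 CPM or less in every profile.

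*C3* (chr17:57203970-57228136, minus strand) encodes the central component of all pathways, and it was the gene with the fewest UMIs (388 in retained cells). Macrophages had 11.4 and 16.1 CPM and fibroblasts 15.4 and 9.39 CPM, so their replicates overlapped. Non-myelinating Schwann cells had 3.57 and 3.31 CPM and all other profiles 1.41 CPM or less. Macrophages exceeded the average log2 level of the remaining types by 4.86 (SE 0.440, adjusted p = 3.18e-08) and fibroblasts by 4.28 (SE 0.313, adjusted p = 2.44e-09). The difference between them was 0.51 (SE 0.390, adjusted p = 0.298), which was not called. Fibroblasts stood above non-myelinating Schwann cells (log2 difference 1.91, SE 0.410, adjusted p = 0.000966) and these above endothelial cells (2.12, SE 0.702, adjusted p = 0.0186). Macrophages held 46 UMIs of *C3*. After thinning to 1000 UMIs, 2 of 172 and 0 of 132 macrophages showed it, and with all UMIs 5.81% and 9.09% did.

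Within the types, clusters differed in the same genes. Fibroblasts held 2 clusters. One, led by *Dcn*, *Apod* and *Gpc3* with *Smoc2*, had 83.8 and 93.8 CPM of *C1ra*, 143 and 122 CPM of *C1s1*, and 1.22 and 4.10 CPM of *C3*. In the other, led by *Mgp*, *Ecrg4* and *Igfbp6* with *Igf2*, *C1ra* was at 73.5 and 60.01 CPM and *C1s1* at 87.6 and 68.2 CPM. That cluster carried most of the fibroblast *C3*, with 31.8 and 18.7 CPM, and 34.3 and 49.8 CPM of *C4b* against 9.14 and 15.7 CPM in the first. In mural cells, which surround small vessels, the small cluster that was high in *C4b* had 95.4 and 90.3 CPM of *C1ra*, against 30.9 and 37.0 CPM in the main cluster. It met the threshold for all 9 mural markers beside the 4 of fibroblasts, with *Mgp* at 6031 and 2973 CPM. The part of fibroblast RNA in it was not tested. Clusters were not compared by test, since cells were grouped on the same data.

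Macrophages held 3 clusters, of which the smallest was 13 cells of replicate 1. In the 2 larger ones *C1qa* stood at 5221 and 5097 CPM and at 3596 and 3605 CPM. *C3ar1* ran the other way, with 409 and 372 CPM in the first and 526 and 462 CPM in the second, while *C5ar1* had 291 and 344 CPM and 345 and 360.0 CPM. The 13 cells, rich in *Fcrls* (3432 CPM), had 3546 CPM of *C1qa*, 462 CPM of *C3ar1* and 74.1 CPM of *C5ar1*, the last on 13 UMIs.

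**Figure D3:**
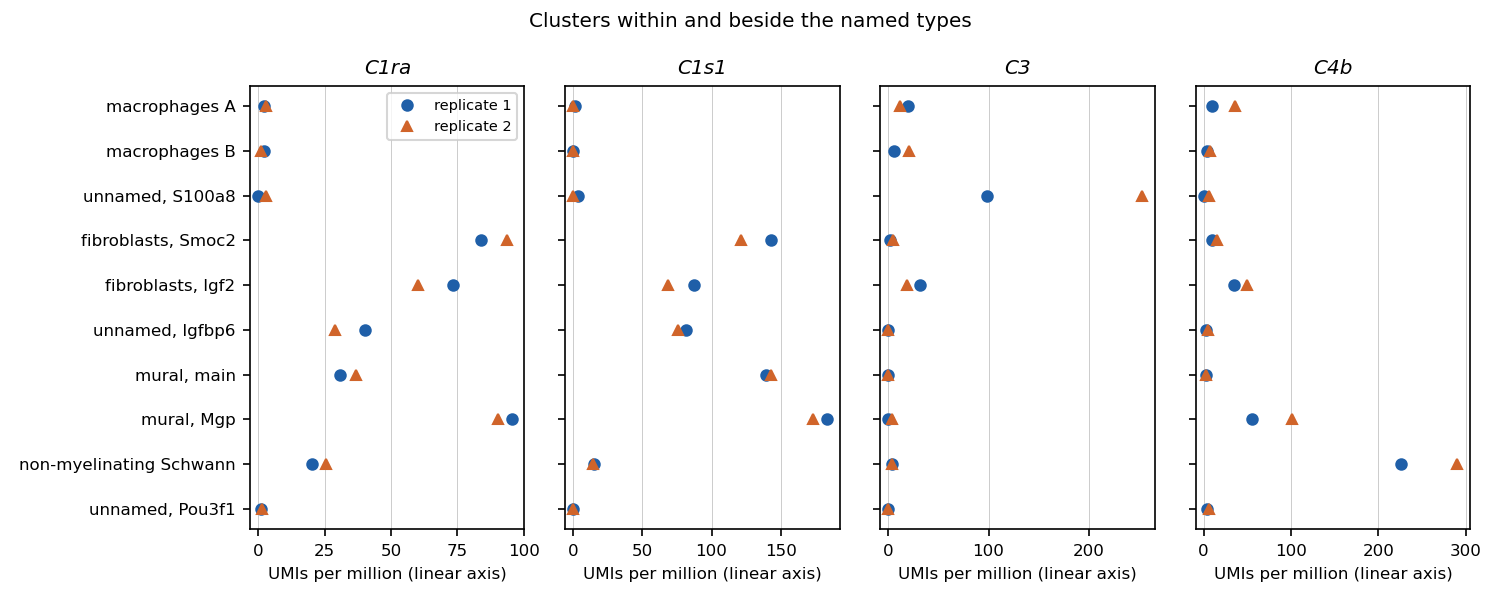
Level (CPM, linear axis) of *C1ra*, *C1s1*, *C3* and *C4b* in clusters of macrophages, mural cells and fibroblasts, in non-myelinating Schwann cells and in 3 unnamed clusters, with a circle for replicate 1 and a triangle for replicate 2. *C3* was highest in the unnamed cluster led by *S100a8* (98.9 and 254 CPM), and *C4b* in non-myelinating Schwann cells.

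Some clusters matched no type and stayed out of the comparisons. The one of 31 and 29 cells led by *S100a8* had the highest level of *C3* in the data, 98.9 and 254 CPM on 28 and 83 UMIs. It exceeded macrophages by 3.31 on the log2 scale (SE 0.426, adjusted p = 5.69e-06), a step called for 6.97% of all genes between the same groups, but it was singled out after its value was seen. It held *Aif1*, *Csf1r* and *Cx3cr1* above the threshold together with 5 of 6 monocyte markers, and 727 and 981 CPM of *C1qa*. Its *S100a8* stood at 19229 and 6014 CPM and the red cell gene *Hbb-bs* at 28958 CPM (replicate 1) and 9.17 CPM (replicate 2) (the part of RNA from other cells was not tested). A cluster led by *Igfbp6* with 6 of 7 perineurial and 7 of 8 fibroblast markers had 40.2 and 28.9 CPM of *C1ra* and 81.7 and 75.8 CPM of *C1s1*. The cluster led by *Pou3f1* had 3.40 and 5.86 CPM of *C4b*, beside 2.01 and 4.02 CPM in myelinating Schwann cells. The dendritic-like cluster of 9 and 12 cells held 1 UMI of *C1qa* and none of *C1qb* or *C1qc*.

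Beyond the 9 genes, 28 further complement genes of a list of 54 had enough counts for a test, so that 37 were tested and 17 were not. Of the 37, 18 were higher and 4 lower in fibroblasts, where 26.8% of all genes were higher and 19.7% lower. Macrophages had 17 higher and 10 lower (24.2% and 27.5% of all genes). Among the 17 were receptors with enough counts for a test only through macrophage profiles. Endothelial cells had 12 higher and 9 lower (26% and 23.6%), and mural cells 12 and 6 (22.5% and 18.5%). Neurons had 9 higher and 16 lower (37% and 29.7%), and non-myelinating Schwann cells 9 and 11 (20.9% and 16.5%). SGCs had 6 higher and 14 lower (34.4% and 22%) and myelinating Schwann cells 3 and 17 (27.9% and 22.2%). Median log2 differences over the 37 ran from -1.60 (SGCs) and -1.53 (myelinating Schwann cells) to 0.38 (macrophages) and 0.57 (fibroblasts). Over all genes the medians of these types were 0.07, 0.03, -0.31 and 0.01. Genes with few counts in a type entered the medians with imprecise values. The median in SGCs was the value of *C5ar1* (SE 203), and that in fibroblasts the value of *Colec11* (SE 0.820). Genes far higher in 1 type also lower the medians of other types, so the medians are a description only. Of the 28 genes outside the 9, 26 were called in their highest type, all but *C4a* and *Cr2*. That type was picked from the same levels, and some of the 28 had enough counts for a test only through it. The share of all genes called in their own highest type was not computed, so this count has no background.

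**Figure D4:**
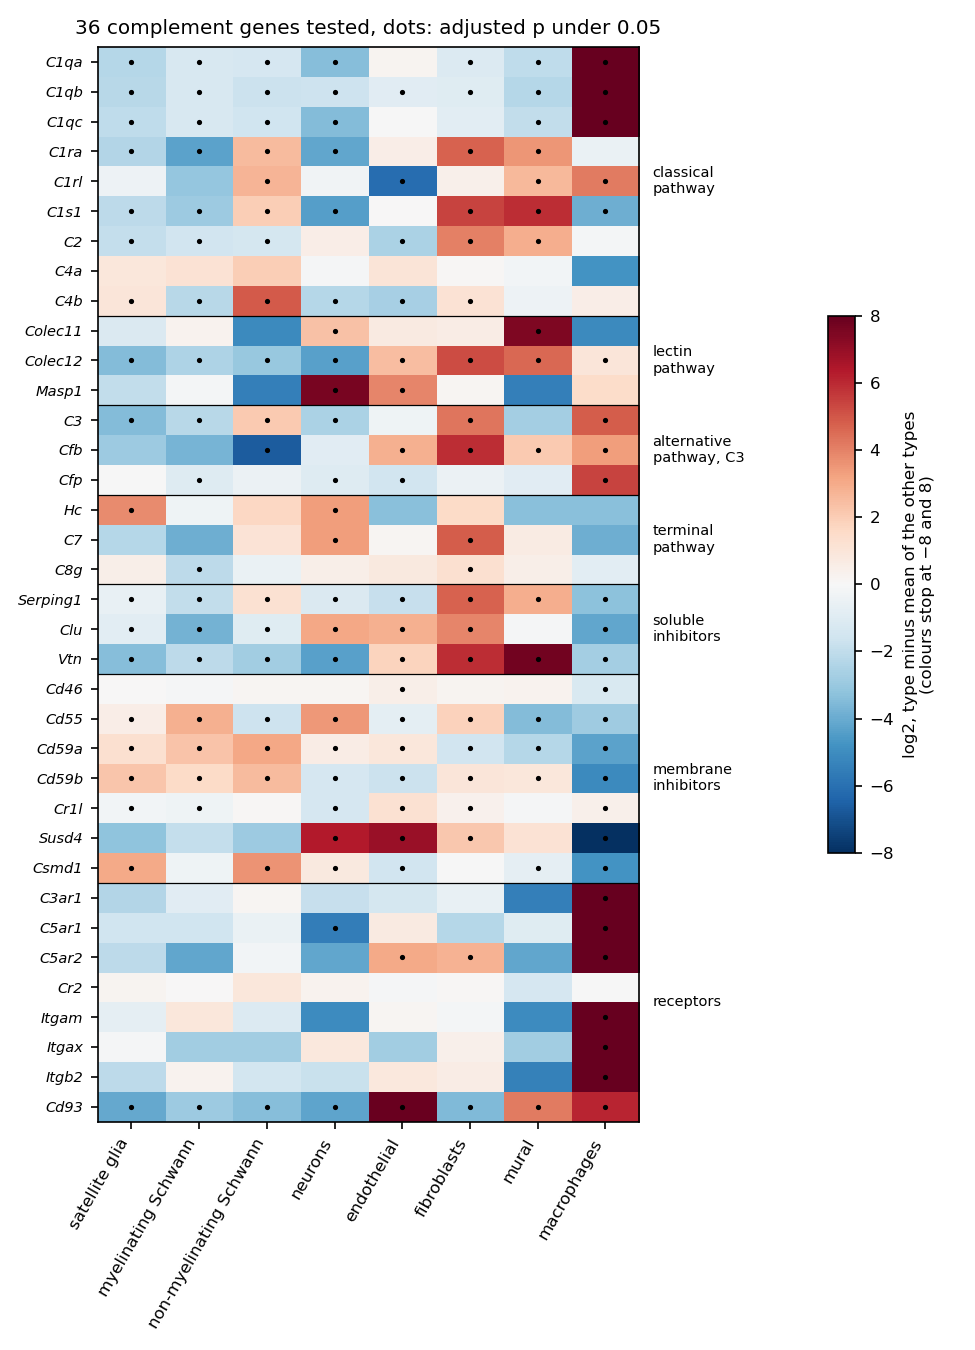
Log2 difference between each cell type and the average log2 level of the remaining types for 36 of the 37 complement genes tested, grouped by role. Red is higher, blue is lower, colours stop at a size of 8, and a dot marks an adjusted p (edgeR) under 0.05. Among the genes shown, fibroblasts carried 17 higher calls and myelinating Schwann cells 3.

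Further genes of the classical and lectin pathways had their highest levels in 4 types. *C2*, another substrate of C1s, had 32.9 and 33.5 CPM in fibroblasts (log2 difference 4.02, adjusted p = 1.41e-12) and *C1rl*, a relative of C1r, 4.16 and 4.71 CPM in macrophages (4.18, adjusted p = 3.28e-05). Among the lectin genes, *Colec12*, a scavenger receptor of the collectin family, had 211 and 221 CPM in fibroblasts and *Colec11*, a soluble collectin, 24.8 and 21.2 CPM in mural cells. *Masp1*, a protease of the lectin pathway, was highest in neurons with 29.7 and 34.9 CPM (log2 difference 7.61, adjusted p = 5.28e-12) and was at 4.70 CPM or less in every other profile. Of the neurons, 33 and 25 carried a barcode called in both replicates, and without these cells neurons left the fit. *Cfb*, the protease of the alternative pathway, had 23.1 and 23.8 CPM in fibroblasts, and *Cfp*, which encodes properdin, had 91.5 and 88.8 CPM in macrophages. The terminal components were scarce. *C7* had 2.29 and 2.26 CPM and *C8g* 1.64 and 1.19 CPM in fibroblasts, and *Hc*, which encodes C5, 0.757 and 0.688 CPM in SGCs, each called.

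All 4 soluble inhibitors tested were higher in fibroblasts, where 26.8% of all genes were. *Serping1*, the inhibitor of C1r and C1s, had 896 and 927 CPM in fibroblasts (log2 difference 4.72, adjusted p = 1.75e-18), 289.8 and 309 CPM in mural cells and 5.72 and 5.38 CPM in macrophages. *Vtn* (vitronectin) had 846 and 829 CPM in mural cells, and *Clu* (clusterin) had 223 and 188 CPM in fibroblasts. Of the 7 membrane inhibitors 6 were lower in macrophages, where 27.5% of all genes were. There *Cd59a*, which blocks the membrane attack complex, had 4.16 and 9.42 CPM. It was highest in Schwann cells, where *Cd59a* had 751 and 793 CPM in non-myelinating and 423 and 419 CPM in myelinating Schwann cells. *Cd55*, which speeds the decay of C3 convertases, had 94.2 and 151 CPM in neurons. *Cd59b* (40.5 and 44.3 CPM) and *Csmd1* (8145 and 8662 CPM) were highest in non-myelinating Schwann cells, and *Susd4* (127 and 142 CPM), *Cr1l* (140.2 and 139 CPM) and *Cd46* (29.4 and 28.2 CPM) in endothelial cells.

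Of 8 receptors tested, 7 were higher in macrophages, where 24.2% of all genes were. *C3ar1*, *C5ar1*, *C5ar2*, *Itgam*, *Itgax* and *Itgb2* had enough counts for a test only through macrophage profiles, so their calls were largely fixed in advance. *Itgam*, which with *Itgb2* forms complement receptor 3, had 143 and 141 CPM there (log2 difference 10.95, adjusted p = 2.25e-15), and *Itgb2* had 53.5 and 60.6 CPM. *C5ar2*, another receptor of C5a, had 22.4 and 22.2 CPM, and *Itgax* 6.24 and 38.4 CPM, a wide spread. *Cd93* was highest in endothelial cells with 453 and 443 CPM.

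The genes whose levels ran most like those of each member were found over 40 cluster profiles and 16984 genes, by Pearson's correlation of log2(CPM + 1). They are a description of profiles that share libraries. For *C1qa* they were *H2-Ab1*, *Tyrobp*, *Cd74*, *Cd300c2* and *Laptm5* (r 0.987 to 0.991), for *C1qb* *Laptm5*, *H2-Ab1*, *Tyrobp*, *Plbd1* and *Cybb*, and for *C1qc* *Ctss*, *Cd300c2*, *Ms4a7*, *H2-Ab1* and *Plbd1*. For the receptors they were *Ms4a14*, *Gm46224*, *Slamf7*, *Ms4a6d* and *Tnf* for *C3ar1* and *Ms4a6d*, *Slamf7*, *Gm46224*, *Stap1* and *Clec4a2* for *C5ar1*. *C1ra* ran with *Flnc*, *Hic1*, *Gstm2*, *Meox2* and *C1qtnf2* (0.886 to 0.910), and *C1s1* with *Nnmt*, *Col6a1*, *Fhl2*, *Ccdc80* and *Cd248* (0.904 to 0.929). *C3* was nearest to *Lsp1* (0.902) and then to *Ssr4*, *Frrs1*, *Cd80* and *Pycard*. *C4b* had no close companion, with *Ccdc158*, *Tnc*, *Slc35b2*, *Scarb2* and *Gm15991* at 0.674 to 0.755. Among the members themselves *C1qa* and *C1qb* stood at 0.990, *C3ar1* and *C5ar1* at 0.990, *C1ra* and *C1s1* at 0.885, and each chain of C1q with each receptor between 0.956 (*C1qa* and *C3ar1*) and 0.975 (*C1qb* and *C5ar1*).

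*C1ra* shares 19.2% of the 90-base windows in its last 1000 bases with *C1rb*, and *C1s1* 1.21% with *C1s2*, and both partners were at 0.347 CPM or less. *C1s1* is overlapped over 11400 bases by *Gm16567* on the opposite strand, which was counted separately.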

How the data were processed

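Cells of 2 replicates were captured with the 10x 3′ chemistry. The authors aligned reads to mm10 with Cell Ranger (7.1.0 per the file headers), and the deposited values are raw UMI counts per gene and barcode, 119101743 and 128668771 in all. The annotation release is not given in the sources used here.

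Barcodes were called as cells from UMI totals or against empty droplets (ranks 45000 to 90000, 10000 simulations, false discovery rate 0.01), and 8802 and 8762 with over 300 genes were kept, holding 90.1% and 86.5% of UMIs. Cells were clustered with Seurat 5.3.0 and sctransform 0.4.2 (3000 variable genes without the 54 listed complement genes, 30 components, resolution 0.8, 21 clusters), and the macrophage cluster was divided further. A cluster was named when at least 3 markers and 66.7% of a class passed 4-fold over the 25th percentile of clusters in 10% of cells, with a lead of 25 percentage points. Clusters with under 1000 genes, over 30% mitochondrial UMIs or a median doublet score over 0.8 (simulated doublets, 2 per cell) were removed, as were cells beyond 5 median absolute deviations within a type and sample. Single cells over the doublet score stayed in, and an alternative left them out. The reference percentile, the naming limits, the division of the macrophage cluster (with C1q levels per cluster seen) and the deviation limit within types were chosen after seeing the data.

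UMIs were summed per type and replicate (at least 20 cells), and genes with at least 10 UMIs in 2 profiles were tested with edgeR 4.0.16 (quasi-likelihood, TMM) in R 4.3.3, each type against the equally weighted mean of the others and in pairs, with Benjamini-Hochberg adjustment and a threshold of 0.05. Scripts were tested on simulated data. Levels are CPM without TMM factors, which are scaled to the total and not to length, so values of different genes are not on 1 scale. For shares of cells, cells were thinned to 1000 UMIs and shallower ones left out. Binomial intervals are exact at 95% and, like the floor of 3 counts, cover counting error only. Profiles of the same replicate number come from 1 dissociation, and their deviations correlated with a median r of 0.107 over 28 pairs of types (-0.00645 to 0.374), so a fit with the replicate as a block was an alternative. DESeq2 1.42.0, other clusterings, filters, scalings and cell sets were the others. Positions are from GENCODE M21, which held 32158 of 32285 identifiers.

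Genes named are the 9 members, the other listed complement genes called in their highest type, the 5 genes most correlated with each member, and markers where a type check needs them. Members and lists were chosen with earlier results of these data known. Values of some genes are not reported here.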

Additional observations from a re-analysis of the deposited data

How the results depend on the processing

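Each of the 9 genes kept its direction and its call in its highest type under every alternative that gave a value, 17 for *C3ar1* and *C5ar1* and 19 for each other gene, with an adjusted p of at most 0.000133 (*C3*). The type compared was the highest of the main fit and was kept in every alternative, so these did not test which type was highest. With unnamed clusters as groups, the one led by *S100a8* stood above macrophages in *C3*. Log2 differences ranged from 10.21 to 16.13 for *C1qa*, 3.81 to 7.89 for *C1s1* and 4.20 to 5.22 for *C1ra*. They ranged from 4.04 to 5.31 for *C4b* and from 3.30 to 5.85 for *C3*. The highest value of *C1qa* and *C1s1* came with the RNA of empty droplets subtracted, and the lowest of *C1s1* with all other retained cells as 1 profile. With that RNA subtracted, lower calls fell to 7 from 32 for the 9 genes and to 35 from 87 for the 37 listed genes. The share of all genes called lower in that fit was not computed. With all UMIs in place of 1000 per cell, shares of cells with a UMI moved to 100% from 95.7% for *C1qa*, 100% from 96.1% for *C1qb* and 100% from 89.8% for *C1qc*. In macrophages they also moved to 92.4% from 34.2% for *C3ar1*, 74.3% from 26.3% for *C5ar1* and 7.24% from 0.658% for *C3*. The other moves were to 54.0% from 9.64% for *C1ra* in fibroblasts, 65.2% from 15.2% for *C1s1* in mural cells and 58.9% from 23.0% for *C4b* in non-myelinating Schwann cells.

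With the replicate as a block, log2 differences were 11.31 for *C1qa*, 5.89 for *C1s1* and 4.92 for *C4b*, and the 9 genes had 17 higher and 32 lower calls and 62 called pairs, as without the block. A further alternative left out 1 replicate of a gene's highest type alone, and the other types kept both replicates. It gave 11.301 to 11.309 for *C1qa*, 10.99 to 11.01 for *C1qb*, 11.12 to 11.21 for *C1qc* and 4.67 to 4.71 for *C1ra*. For *C1s1* it gave 5.89 to 5.90, for *C3* 4.63 to 5.11 and for *C4b* 4.72 to 5.08. The lone profile left of that type is assumed to vary like the rest. *C3ar1* and *C5ar1* gave no value there, since 1 profile with counts is under the filter. Neurons left the fit without the shared barcodes and with the deviation limit set over all cells. Low counts limit *C3* and every level outside a gene's main types.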

Other observations

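*C4b* was higher in replicate 2 than in replicate 1 in 7 of 8 types, with a log2 difference of 0.46 between replicates in the fit with the replicate as a block. Of all genes tested, 5.54% were higher in replicate 2 in at least 7 of 8 types, and 7.64% of those with a mean of at least 10 CPM.

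An unnamed cluster of 13 and 19 cells with 4 of 6 dendritic markers, led by *Cd74* and class II genes, had 56.9 and 68.2 CPM of *C1qb* but 4.06 and 9.75 CPM of *C1qa*, on 14 and 28 against 1 and 4 UMIs. In macrophages the UMIs of *C1qb* and *C1qa* were 13989 and 14649. The cells removed as a doublet cluster, which carried markers of macrophages and of satellite glial cells, had 1187 and 1046 CPM of *C1qa*.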
